A study of Homo sapiens with 6 samples.

Results

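The genes of fibroblast growth factor (FGF) signalling and of its negative feedback on the kinase ERK were compared between day 3.5 mesodermal progenitors and undifferentiated cells of H9, a widely used human embryonic stem cell (hESC) line. The members were chosen by name. They are the genes whose symbol is FGF, FGFR, SPRY, SPRED or DUSP with a number, together with FGFRL1, ETV1, ETV4, ETV5, IL17RD and FRS3. This gave 140 of the 54675 probe sets on the array and 62 of the 19775 genes that had a probe set of their own. A further 16 probe sets of 8 symbols that begin alike but name antisense RNAs, pseudogenes or other genes, such as FGFR1OP2, were left out. FRS2, which the rule also lists, was not analysed here.

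The progenitor group had 3 arrays. Per the labels, its cells were derived from H9 cells in Stemline II medium that held VEGF, FGF2, BMP4 and activin A, and were sorted on day 3.5 for lacking CD326 (EPCAM) and carrying CD56 (NCAM1). The hESC group had 3 arrays of undifferentiated H9 cells. Both groups share this 1 cell line, and no unsorted day 3.5 cells were measured, so the sort and the differentiation cannot be told apart. Separate cultures are not named in the labels. The p-values therefore cover only the spread between these arrays, which may be technical. Levels are given as log2(intensity + 16) after quantile normalization, a scale on which an intensity of 0 is 4 and the median over all probe sets was 5.61. The number of arrays limits the precision, and a change on this scale understates the change of dim genes.

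FGFs are secreted proteins that bind tyrosine kinase receptors (FGFR) together with heparan sulfate, and the receptors act through docking proteins of the FRS family on RAS and the kinases RAF, MEK and ERK. ERK activity raises the transcription of its own inhibitors, among them the Sprouty (SPRY) and SPRED proteins and dual-specificity phosphatases (DUSP) that dephosphorylate ERK, and of ETS factors of the PEA3 group (ETV1, ETV4, ETV5). FGF signalling maintains human pluripotent cells in culture and is required in vertebrate embryos for cells to leave the primitive streak and form mesoderm.

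The labels were checked on marker genes. The pluripotency factors NANOG, SOX2, PRDM14 and DPPA4 were all lower in the progenitors, and the mesoderm genes TBXT, MIXL1, MESP1, EOMES and PDGFRA were all higher. The 4 pluripotency factors still averaged 7.21, 8.75, 5.96 and 10.85 in the progenitors, each above the median of all probe sets. Of the sort antigens, NCAM1 rose by 3.46 and EPCAM fell by 2.33. EPCAM still averaged 9.35 in the progenitors, against 11.69 in hESC. Of 4 endoderm markers, SOX17 (2.36) and FOXA2 (0.50) rose, AFP (-0.58) fell and TTR did not pass. Their summed log2 level lay between 24.1 and 24.9 on progenitor arrays and between 21.8 and 22.4 on hESC arrays, without overlap, and TTR lay near the floor of the scale in both groups. Of 3 neuroectoderm markers, OTX2 (-0.80) fell and PAX6 and SOX1 did not pass, with a sum between 19.0 and 20.3 on progenitor arrays and between 19.7 and 19.8 on hESC arrays. PAX6 and SOX1 averaged below the median of all probe sets in both groups, whereas OTX2 averaged 9.61 in the progenitors and 10.41 in hESC. The part of endoderm or neuroectoderm cells in the members' changes was not tested. Only 7 genes were over 2-fold apart between progenitor arrays 2 and 3, whereas array 1 differed over 2-fold from them in 208 and 180 genes. Of 4 endothelial markers, 3 (CDH5, SOX7, TEK) exceeded the mean of the other progenitor arrays over 2-fold on progenitor array 1, and PECAM1 lay close to it. The summed log2 level of the 4 markers ranged from 30.8 to 37.2 in the progenitors, highest on array 1, and from 24.1 to 24.5 in hESC, and CDH5 lay near the floor of the scale in hESC. Other markers differed on array 1 too. Its median difference from the mean of the other progenitor arrays was 1.54 over the 4 endothelial and 0.79 over the 3 neuroectoderm markers (2 of them higher). It was 0.20 over the 4 pluripotency, 0.16 over the 4 endoderm and -0.13 over the 5 mesoderm genes. SOX2 was at 9.36 on array 1, against 8.42 and 8.46 on the others. Among the members no gene was over 2-fold apart between array 1 and the others, and the median difference was 0.02. In such samples a change in the share of a cell type and a change in RNA per cell cannot be told apart.

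The windows directly before the annotated start of 4 members are shown because these genes moved far or moved in opposite directions while holding the same short motif. DUSP10 was the member with the largest increase and FGF2 the one with the largest decrease. SPRY2, which rose, and ETV1, which fell, each held the core motif CCGGAA of ETS factors. The sequences are the 250 bases before the start in RefSeq (GRCh38.p14), on the strand of the gene, and capitals mark motif matches. DUSP10 lies at chr1:221742090-221742339 (minus strand), SPRY2 at chr13:80341127-80341376 (minus strand), FGF2 at chr4:122826581-122826830 (plus strand) and ETV1 at chr7:13990703-13990952 (minus strand).
DUSP10: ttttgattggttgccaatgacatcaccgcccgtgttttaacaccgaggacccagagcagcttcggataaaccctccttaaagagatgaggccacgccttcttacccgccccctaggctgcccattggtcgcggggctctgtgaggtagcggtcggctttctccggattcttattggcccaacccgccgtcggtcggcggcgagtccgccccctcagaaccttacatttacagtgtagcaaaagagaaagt
SPRY2: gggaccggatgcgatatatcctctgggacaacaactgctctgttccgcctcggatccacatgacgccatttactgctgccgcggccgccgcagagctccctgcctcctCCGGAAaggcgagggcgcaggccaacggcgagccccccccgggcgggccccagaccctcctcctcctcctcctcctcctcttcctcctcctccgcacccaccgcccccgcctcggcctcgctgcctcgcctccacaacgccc
FGF2: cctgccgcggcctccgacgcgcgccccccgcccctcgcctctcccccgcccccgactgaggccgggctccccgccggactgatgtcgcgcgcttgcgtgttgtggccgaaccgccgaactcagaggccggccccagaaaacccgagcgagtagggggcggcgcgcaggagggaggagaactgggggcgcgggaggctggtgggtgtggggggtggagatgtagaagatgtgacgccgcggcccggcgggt
ETV1: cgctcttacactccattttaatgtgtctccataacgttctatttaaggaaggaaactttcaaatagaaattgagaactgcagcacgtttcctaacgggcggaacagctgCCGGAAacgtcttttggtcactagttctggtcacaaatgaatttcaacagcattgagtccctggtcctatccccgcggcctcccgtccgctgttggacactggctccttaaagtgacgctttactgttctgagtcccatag

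Such a window was at hand for 48 of the 62 members, and 4 motifs were searched on both strands, with the window of the first listed start used for each gene. CCGGAA was found in 3 of 48 windows (6.25%), against 19.6% of the windows of 15360 measured genes. The TCF/LEF motif CTTTGA was in 4 windows (8.33%), against 9.41% of all. The AP-1 motif TGANTCA was in 1 window, that of SPRED3, against 5.03% of all. The T-box motif GGTGTGA was in 0 of 48 windows, which allows a share of up to 6.25%, against 2.57% of all. The members that rose held CCGGAA in 2 of 24 windows and those that fell in 1 of 8. These matches describe the letters of the windows only.

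Of the 62 members, 29 rose and 12 fell in the progenitors, and 21 did not pass the test (limma, Benjamini-Hochberg adjusted p under 0.05 over all genes). Over all genes, 26.7% were called higher and 21.2% lower, 47.9% in all. The median log2 change of the members was 0.31, against 0.04 over all genes. At least 2-fold changes were found for 15 members higher and 2 lower, against 9.39% and 7.22% of all genes. In 44 members the arrays of the groups did not overlap, as in 57.3% of all genes. The members had 48 genes with a group mean at or above the median of all probe sets, of which 37 were called, and genes of that brightness were called in 63.5% of cases over the whole array. Of the 140 member probe sets, 48 were called higher and 28 lower, against 20.3% and 20.0% of all probe sets (40.2% either way). Groups did not overlap in 80 of them, against 51.2% of all. At least 2-fold changes were called in 23 higher and 8 lower, against 6.79% and 7.94%. The split between higher and lower members depended on the scaling. It was 22 higher and 19 lower with arrays centred on their gene medians, and 35 and 5 when arrays were scaled on their biotin hybridization controls, where the median change of all genes was -0.15 and 0.32. The split over all genes moved the same way, with 55.8% of called genes higher as reported, 37.2% after median centring and 82.0% after scaling on the controls. Among called members the share was 70.7%, 53.7% and 87.5% in that order.

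**Figure D1:**
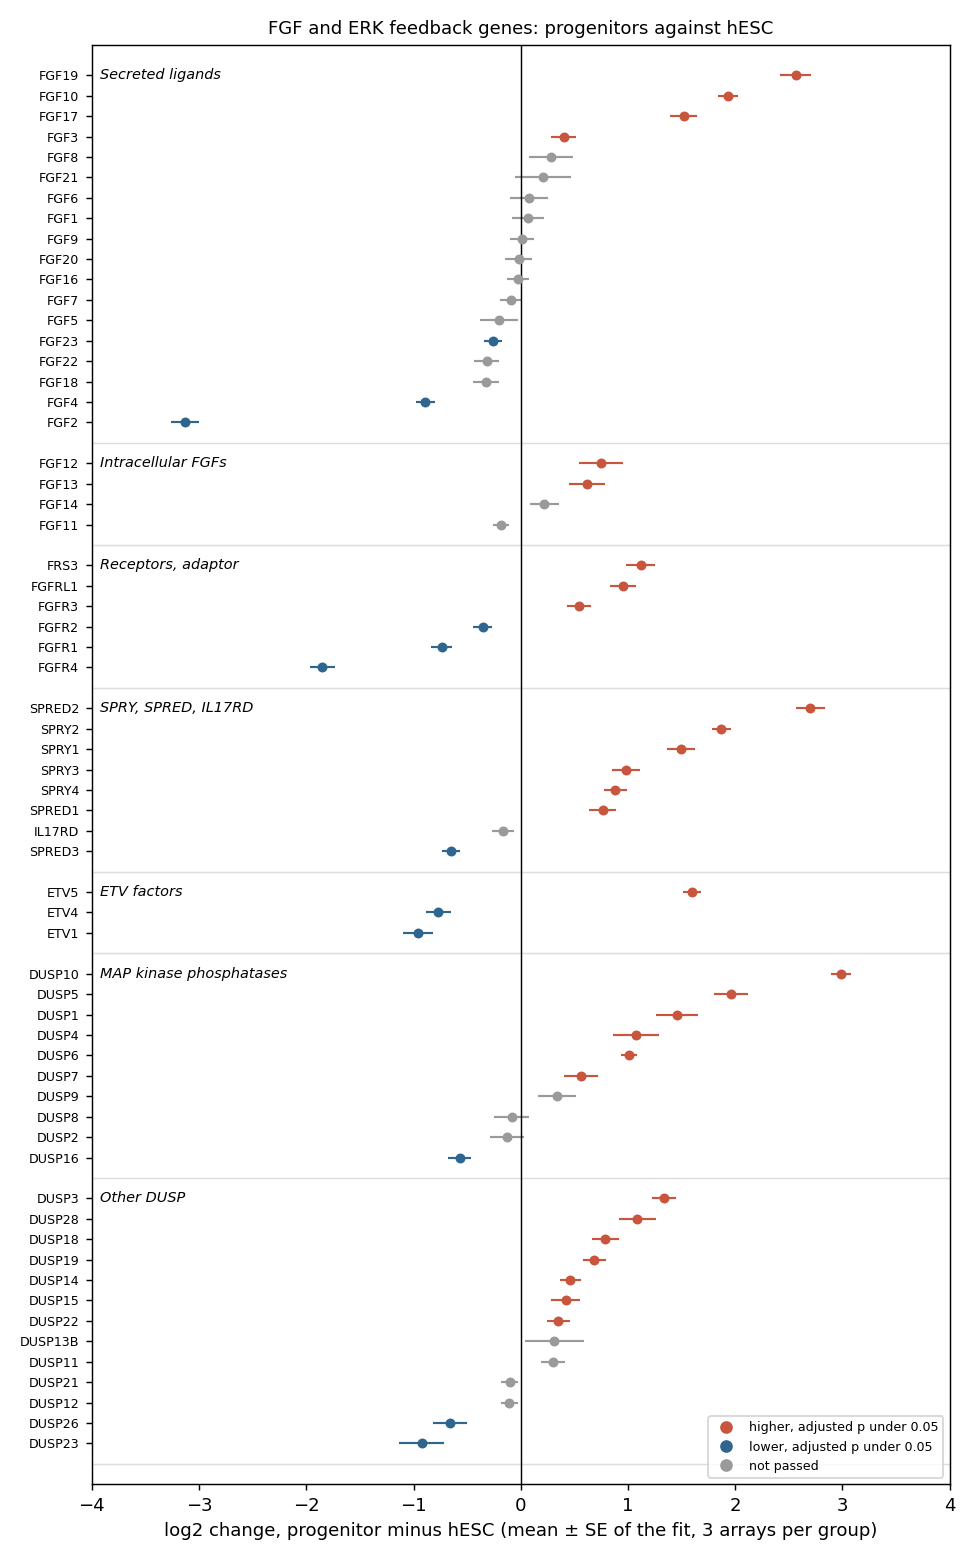
Log2 change (progenitor minus hESC) of all 62 member genes, grouped by role, with the SE of the fit as bars (3 arrays per group) and colour for the call. The 29 genes that rose include 4 of 4 SPRY genes, and FGF2 at -3.13 is the lowest point.

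Secreted ligands moved in both directions. Of 18, FGF19, FGF10, FGF17 and FGF3 rose, FGF2, FGF4 and FGF23 fell, and 11 did not pass, with a median log2 change of -0.00. The share called was 38.9%, below the 47.9% of all genes. Only 8 of the 18 had a group mean at or above the median of all probe sets. FGF2, the factor that is added to hESC medium and was also in the induction medium as protein, had log2 levels of 6.38, 6.61 and 6.54 in the progenitors and 9.45, 9.89 and 9.58 in hESC. The groups were far apart, with a log2 change of -3.13 (SE 0.13, limma adjusted p = 2.08e-06), 8.76-fold lower. The other FGF2 probe set fell by 1.80, a smaller decrease in the same direction. FGF4, a ligand made by pluripotent cells and by the early mouse embryo, was at 5.36, 5.43 and 5.49 in the progenitors and at 6.40, 6.22 and 6.34 in hESC, and fell by 0.89, or by 0.45 on the mean of both of its probe sets.

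FGF19, an endocrine ligand of bile acid control that is also made in the embryo, was at 10.72, 10.29 and 10.35 in the progenitors and at 7.74, 8.08 and 7.86 in hESC. It rose by 2.56 (SE 0.14, limma adjusted p = 8.38e-06), 5.91-fold, and by 2.45 without progenitor array 1. FGF10, the mesenchymal ligand needed for limb and lung buds in the mouse, was at 6.47, 6.61 and 6.54 in the progenitors and at 4.52, 4.72 and 4.58 in hESC. Its log2 change was 1.93 (SE 0.09, limma adjusted p = 3.35e-06), and it lay between 0.96 and 3.07 with pseudocounts of 64 and 1. FGF17, a relative of FGF8, was at 6.46, 6.08 and 6.30 in the progenitors and at 4.85, 4.62 and 4.82 in hESC, and rose by 1.52 (SE 0.12), or by 0.74 and 2.38 with those pseudocounts. For both genes the hESC arrays lay near the floor of the scale, and all 3 progenitor arrays lay above the median of all probe sets.

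FGF8, the streak ligand of the mouse embryo, did not pass, at 5.70, 4.96 and 4.96 in the progenitors and 4.83, 5.09 and 4.85 in hESC. Progenitor array 1 was the high one, where endothelial and some other markers were high too. The part of any cell type in the FGF8 value was not tested. FGF1, FGF5, FGF6, FGF7, FGF9, FGF16, FGF18, FGF20, FGF21 and FGF22 did not pass either, with log2 changes between -0.32 for FGF18 and 0.21 for FGF21. Of these, FGF18 and FGF22 passed without hESC array 3, at -0.41 and -0.42, and FGF22 was at 0.26 without progenitor array 1, since a different FGF22 probe set then had the highest mean. FGF7 shares a probe set with its pseudogenes, which was not used. The smaller calls were FGF3 (0.40) and FGF23 (-0.26), both below the median of all probe sets in each group. FGF3 did not pass without hESC array 1 or 2 or progenitor array 2 or 3 (0.40, 0.35, 0.32 and 0.39), and FGF23 did not pass without hESC array 2 or 3 or progenitor array 2 or 3 (-0.25, -0.22, -0.25 and -0.26).

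The intracellular FGFs bind voltage-gated sodium channels and are not secreted. FGF12 and FGF13 rose by 0.75 (SE 0.21) and 0.61 (SE 0.17), and FGF11 (-0.18) and FGF14 (0.22) did not pass. FGF13 was at 9.74, 10.32 and 10.33 in the progenitors and at 9.44, 9.49 and 9.62 in hESC. FGF12 was at 6.78, 7.52 and 7.42 in the progenitors and at 6.31, 6.69 and 6.46 in hESC. Progenitor array 1 was the low one for both genes, and without it they rose by 0.97 (FGF12) and 0.82 (FGF13). FGF12 did not pass without hESC array 1 or 3 or progenitor array 2 or 3 (0.67, 0.74, 0.61 and 0.65), and FGF13 did not pass without hESC array 1 or 2 or progenitor array 2 or 3 (0.57, 0.59, 0.52 and 0.52). All 3 FGF12 probe sets were called higher.

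All 5 receptor genes passed the test, with different directions. Over all genes 47.9% passed, and 63.5% of those with a group mean at or above the median of all probe sets. FGFR4, FGFR1 and FGFR2 fell on their brightest probe sets, and FGFR3 and the kinase-less receptor FGFRL1 rose. FGFR4 was at 7.68, 7.89 and 8.06 in the progenitors and at 9.81, 9.62 and 9.74 in hESC, a log2 change of -1.85 (SE 0.12, limma adjusted p = 1.49e-05). It was -0.84 on the mean of its 4 probe sets, of which 2 were called lower and 2 did not pass. FGFR1, a receptor for FGF2, was at 10.41, 10.14 and 10.25 in the progenitors and at 10.96, 11.09 and 10.96 in hESC. Its change on that probe set was -0.74 (SE 0.10, limma adjusted p = 0.000647), and all 7 FGFR1 probe sets fell, by changes from -2.67 to -0.65. The mean of these probe sets changed by -1.60, and with scaling on hybridization controls the change of the brightest was -0.29 and did not pass.

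FGFR2 was at 10.44, 10.65 and 10.64 in the progenitors and at 10.91, 11.00 and 10.89 in hESC, a small decrease of 0.36 (SE 0.09, limma adjusted p = 0.0153). Its 11 probe sets disagreed. 4 were called lower, 6 did not pass and 1 was called higher, at 1.05 (SE 0.18), with levels of 6.29, 6.99 and 6.78 in the progenitors and 5.54, 5.74 and 5.65 in hESC. FGFR2 and DUSP16 were the members with probe sets called in both directions, as were 7.09% of all genes with over 1 probe set. Which transcript forms of FGFR2 the probe sets match was not analysed here. The mean of the 11 (-0.12) did not pass, nor did the brightest after hybridization-control scaling (0.09). Without probe sets whose names end in _x_at or _s_at the change was 1.05, since the dimmer probe set called higher then represented FGFR2. FGFR3 was at 10.34, 10.65 and 10.65 in the progenitors and at 10.01, 10.08 and 9.91 in hESC. It rose by 0.54 (SE 0.11, limma adjusted p = 0.00554), and its other probe set differed by -0.36 without passing, so that the mean of both (0.09) did not pass. FGFRL1 rose by 0.95 (SE 0.12), or by 0.53 averaged over both probe sets, the dimmer of which did not pass (0.11). FRS3, a docking protein of FGF receptors, was at 7.47, 7.60 and 7.56 in the progenitors and at 6.50, 6.15 and 6.63 in hESC, and rose by 1.12 (SE 0.13).

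**Figure D2:**
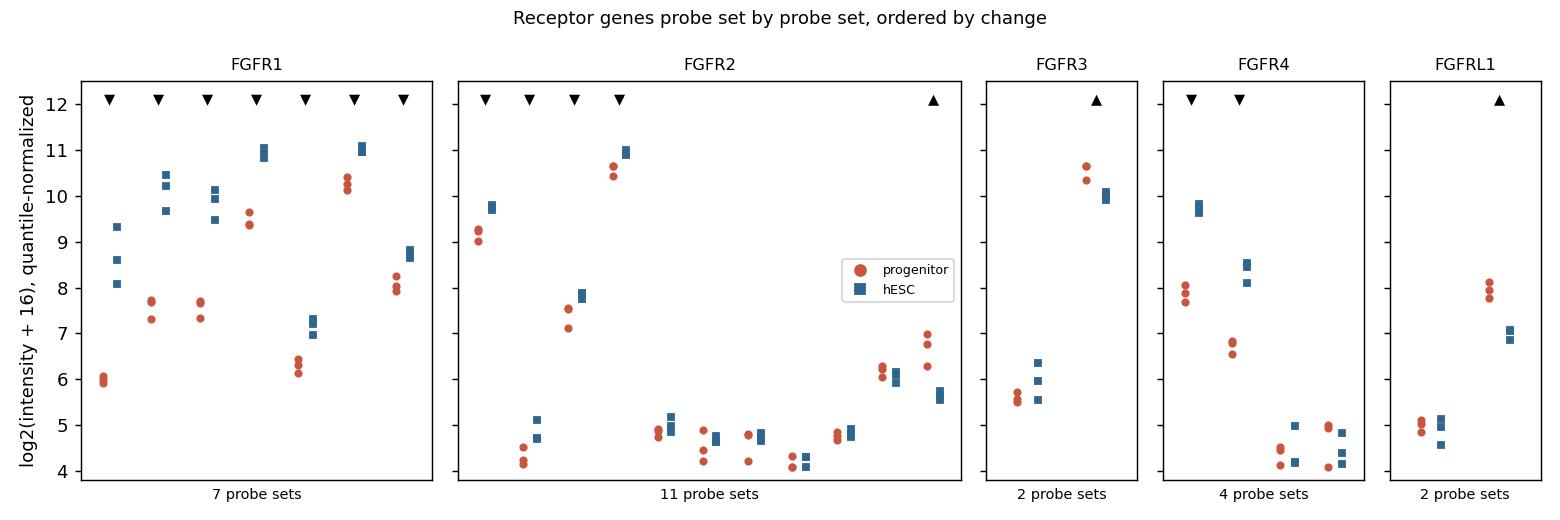
Log2(intensity + 16) on each array for every probe set of the 5 receptor genes, ordered within a gene by change, with 3 progenitor arrays (circles) left of 3 hESC arrays (squares) and a triangle up or down where the probe set was called. All 7 FGFR1 probe sets point down, whereas FGFR2 has 4 down and 1 up.

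Sprouty and SPRED genes, inhibitors of the RAS and ERK pathway, rose except for SPRED3. All 4 SPRY genes and 2 of 3 SPRED genes were higher, with a median log2 change of 0.98 over the 7. Over all genes 26.7% were called higher. All 7 had a group mean at or above the median of all probe sets, and 4791 of 13543 such genes were called higher. SPRED2 was at 10.24, 9.89 and 9.93 in the progenitors and at 7.38, 7.12 and 7.47 in hESC. It rose by 2.70 (SE 0.13, limma adjusted p = 4.58e-06), and by 1.03 on the mean of its 3 probe sets, of which 2 were called higher. SPRY2 was at 10.93, 11.08 and 11.03 in the progenitors and at 9.12, 9.09 and 9.23 in hESC, and rose by 1.87 (SE 0.09). SPRY1 was at 9.40, 9.49 and 9.50 in the progenitors and at 8.05, 7.71 and 8.16 in hESC, and rose by 1.49 (SE 0.13), with both of its probe sets called higher. In these genes every progenitor array lay above every hESC array, and groups did not overlap in 57.3% of all genes.

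SPRY4 rose by 0.88 (SE 0.11), SPRY3 by 0.98 (SE 0.13, or 0.48 and 1.51 with pseudocounts of 64 and 1) and SPRED1 by 0.76 (SE 0.12), the last on all 3 of its probe sets. SPRED3 differed in the other direction, at 5.84, 5.92 and 5.96 in the progenitors and at 6.58, 6.60 and 6.49 in hESC, and changed by -0.65 (SE 0.08), or by -0.40 with a pseudocount of 64. After hybridization-control scaling its change was -0.32 and did not pass. IL17RD (SEF), a membrane protein that holds back FGF receptor and ERK signalling, did not pass at -0.16 on its brightest probe set, and its other probe set was called lower, at -0.40.

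The PEA3 factors, ETS proteins that are targets of ERK, split. ETV5 rose and ETV1 and ETV4 fell. ETV5 was at 9.43, 9.33 and 9.36 in the progenitors and at 7.76, 7.71 and 7.86 in hESC, and rose by 1.60 (SE 0.08, limma adjusted p = 5.87e-06), with 4 of its 5 probe sets called higher. ETV1 was at 8.80, 9.17 and 9.17 in the progenitors and at 9.97, 10.18 and 9.85 in hESC. It changed by -0.95 (SE 0.14), with 3 of 5 probe sets called lower, and by -0.48 on the mean of all 5. ETV4 fell by 0.77 (SE 0.12) on its brightest probe set and by 0.69 on the other, and its change after hybridization-control scaling, -0.24, did not pass. ETV5 and the ETV1 and ETV4 pair thus had opposite directions under the reported scaling.

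**Figure D3:**
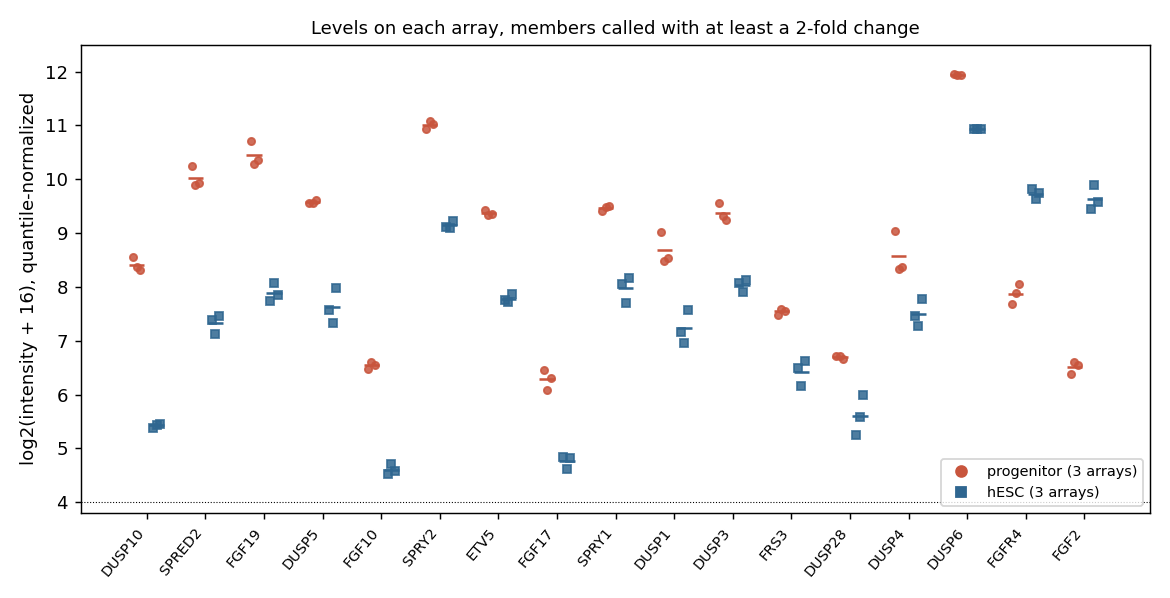
Log2(intensity + 16) on each array for the 17 members called with a change of at least 2-fold, with 3 progenitor arrays (circles) left of 3 hESC arrays (squares), a line at each group mean and a dotted line at an intensity of 0. The 15 genes that rose and the 2 that fell, FGFR4 and FGF2, show no overlap between the groups, as do 57.3% of all genes.

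Most MAP kinase phosphatases that act on ERK were higher. Of 7, DUSP1, DUSP4, DUSP5, DUSP6 and DUSP7 rose, and DUSP2 (-0.12) and DUSP9 (0.34) did not pass. The share called was 71.4%, against 47.9% of all genes. All 7 had a group mean at or above the median of all probe sets, and 63.5% of all such genes were called. DUSP6, the cytoplasmic ERK phosphatase and a direct FGF target, was at 11.95, 11.93 and 11.94 in the progenitors and at 10.93, 10.94 and 10.93 in hESC. Arrays of a group differed little, and DUSP6 rose by 1.01 (SE 0.07, limma adjusted p = 3.00e-05), with all 3 probe sets called higher at 1.01 to 1.29. DUSP5, a nuclear ERK phosphatase, was at 9.56, 9.56 and 9.61 in the progenitors and at 7.56, 7.32 and 7.97 in hESC, and rose by 1.96 (SE 0.16).

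DUSP1 was at 9.03, 8.49 and 8.54 in the progenitors and at 7.16, 6.96 and 7.56 in hESC. Induced by growth factors and by stress, it rose by 1.46 (SE 0.20), or 0.61 on the mean of its 3 probe sets, of which the other 2 did not pass. DUSP4 was at 9.04, 8.33 and 8.37 in the progenitors and at 7.45, 7.28 and 7.78 in hESC, and rose by 1.08 (SE 0.21). The mean of its 3 probe sets rose by 0.83, with 2 called higher and 1 that did not pass (0.47). Both genes were highest on progenitor array 1, where 3 of 4 endothelial markers and some other markers were also highest. The part of any cell type in the values was not tested. Without that array DUSP1 rose by 1.29 and DUSP4 by 0.85, and both still passed. DUSP7 rose by 0.56 (SE 0.16) and did not pass without hESC array 1 (0.54) or 2 (0.48), while DUSP9 passed without hESC array 3, at 0.53.

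Of the phosphatases that act mainly on JNK and p38, DUSP10 had the largest increase of all members. It was at 8.55, 8.37 and 8.31 in the progenitors and at 5.38, 5.44 and 5.46 in hESC, a log2 change of 2.98 (SE 0.09, limma adjusted p = 5.60e-07), 7.90-fold. Its other probe set rose by 2.56. DUSP16 was at 8.41, 8.56 and 8.58 in the progenitors and at 9.10, 9.23 and 8.93 in hESC, and fell by 0.57 (SE 0.10). Its 4 probe sets ranged from -0.92 to 0.38, with 2 called lower and 1 higher, their mean was -0.33, and scaling on hybridization controls left a change of -0.05 that did not pass. DUSP8 (-0.08) did not pass.

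The remaining 13 DUSP genes are mostly small atypical phosphatases, several of which do not act on MAP kinases. DUSP3, DUSP28, DUSP18, DUSP19, DUSP14, DUSP15 and DUSP22 rose, DUSP23 and DUSP26 fell, and DUSP11, DUSP12, DUSP13B and DUSP21 did not pass. The share called was 69.2%, against 47.9% of all genes. Of the 13, 10 had a group mean at or above the median of all probe sets, and 63.5% of all such genes were called. DUSP3 (VHR), which dephosphorylates ERK and JNK, was at 9.55, 9.32 and 9.25 in the progenitors and at 8.06, 7.91 and 8.13 in hESC. It rose by 1.34 (SE 0.11, limma adjusted p = 5.80e-05) and on all 3 of its probe sets. DUSP28 was at 6.71, 6.71 and 6.66 in the progenitors and at 5.25, 5.58 and 5.99 in hESC, and rose by 1.09 (SE 0.17), or by 0.64 with a pseudocount of 64. DUSP23 was at 8.70, 7.93 and 7.95 in the progenitors and at 9.05, 9.03 and 9.27 in hESC, and its change of -0.92 was -1.19 without progenitor array 1. DUSP26 changed by -0.66 (SE 0.16), below the median of all probe sets on average in both groups. After hybridization-control scaling DUSP23 did not pass (-0.41), and DUSP26 passed with -0.45. With quantile normalization and a pseudocount of 64, DUSP26 changed by -0.29.

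Some small increases in this set lay near the threshold and lost their call with 1 array fewer. With each array left out in turn, the change stayed between 0.33 and 0.55 for DUSP15 and between 0.27 and 0.44 for DUSP22. DUSP15 (0.42) did not pass without hESC array 1 or 3 or any one of the progenitor arrays (0.33 to 0.47). Its group means, 5.34 and 4.93, lay below the median of all probe sets. In the test over probe sets neither of its probe sets (0.42 and -0.03) passed, and their mean (0.19) did not pass among genes. DUSP22 (0.35) did not pass without hESC array 1 or 2 or any one of the progenitor arrays (0.27 to 0.38). DUSP11, at 0.30, passed without hESC array 3 (0.39). DUSP18 (0.79), DUSP19 (0.69) and DUSP14 (0.46) passed without each array in turn, and the means of the probe sets of DUSP18 and DUSP19 were 0.40 and 0.41.

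**Figure D4:**
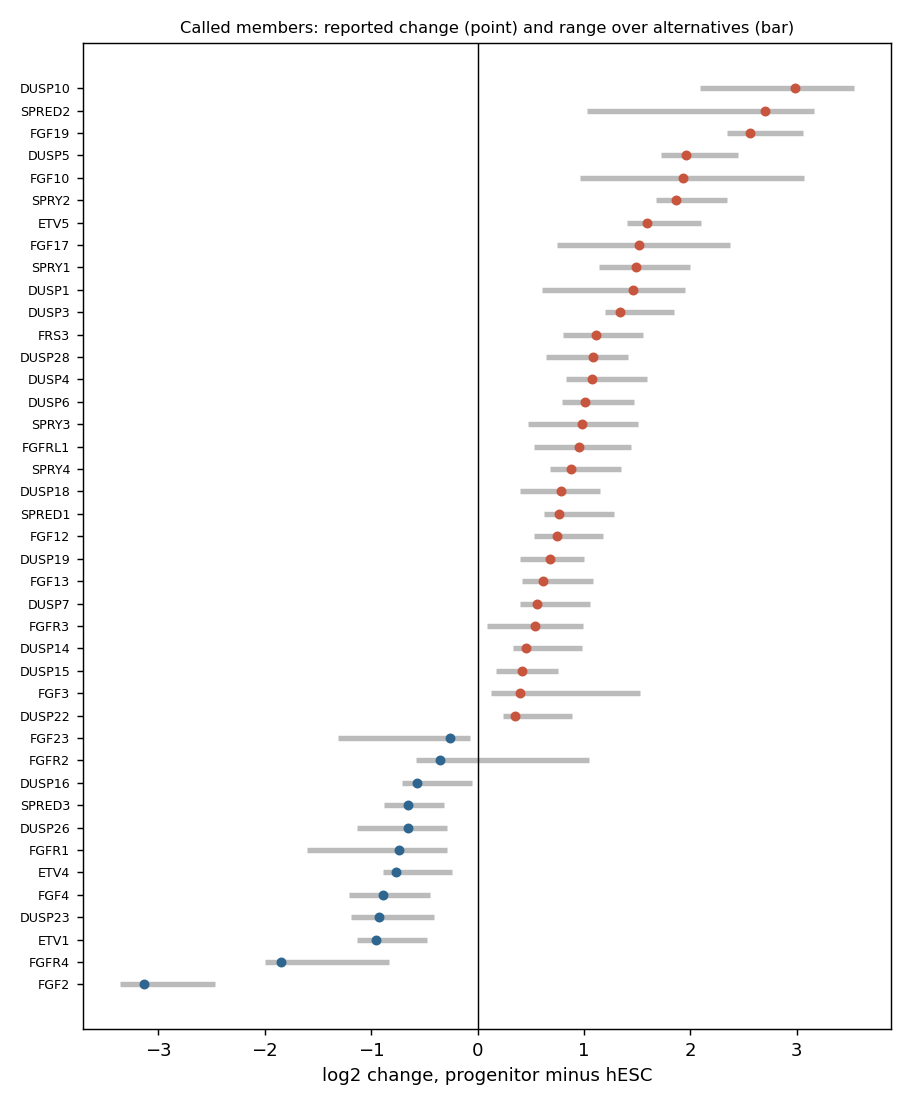
Reported log2 change (point, progenitor minus hESC) of the 41 called members and the lowest to highest value over the 19 alternatives (bar). All members but FGFR2, whose bar runs from -0.58 to 1.05, stay on 1 side of 0.

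Other genes of the RAS and ERK cascade were counted for comparison. Of 45 listed, 39 were measured, and of these 20 rose, 3 fell and 16 did not pass, with a median log2 change of 0.24. The share called was 59.0%, against 47.9% of all genes and 63.5% of bright genes, and 34 of the 39 were bright. FLRT3 and FLRT2, membrane proteins that bind FGF receptors, had the largest increases, at 4.22 (SE 0.13) and 3.50 (SE 0.09), followed by the docking protein GAB2 at 2.79 (SE 0.16). FLRT3 was at 9.77, 10.12 and 10.06 in the progenitors and at 5.57, 5.87 and 5.85 in hESC. The RAS inhibitor RASAL2, the ERK-activated kinase RPS6KA2 and the RAS relative RRAS2 fell, with changes of -0.93, -0.86 and -0.82. The adaptor SHC1 (-0.03), the phospholipase PLCG1 (-0.20) and the ubiquitin ligase CBL (-0.13) did not pass. PLCG1 passed without hESC array 3 (-0.36). The count of genes that fell was 5 without hESC array 2 or 3 or progenitor array 1.

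Of 7 other genes whose transcription ERK raises, 6 rose and 1 did not pass, where 26.7% of all genes rose. All 7 were bright, and 4791 of 13543 bright genes rose. Progenitor array 1, on which endothelial and some other markers were high, was above the mean of the other progenitor arrays in 6 of the 7. The median difference was 0.29, against -0.01 over all genes, and the part of any cell type was not tested. The immediate-early factor EGR1, the receptor EPHA4 and the stress-response gene IER3 rose by 2.30, 1.78 and 1.32, and CCND1, EPHA2 and PHLDA1 by 0.71, 0.56 and 0.75. EGR1 was at 9.39, 8.45 and 8.40 in the progenitors and at 6.16, 6.63 and 6.55 in hESC, and rose by 1.97 without progenitor array 1, as EPHA4 did by 1.60. FOSL1, a partner of JUN, differed by -0.45 without passing, and passed without progenitor array 1 (-0.79).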

How the data were processed

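RNA of 3 progenitor and 3 hESC samples was hybridized to 1-colour oligonucleotide arrays, after amplification to biotinylated cRNA per the labels' protocols. The authors' deposited values are intensity values on a linear scale. How they summarised probes, corrected background and scaled arrays is unstated in the labels. In all, 2.15% of the values equal 1.

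Intensities were converted to log2(intensity + 16). The array medians spanned 0.1495, above the limit of 0.1, and the arrays were quantile-normalized. Probe sets annotated to 1 gene were named with updated symbols, and each gene was represented by its probe set with the highest mean. The test across genes was limma 3.58.1 (lmFit, then eBayes) in R 4.3.3. It was two-sided, with Benjamini-Hochberg adjustment over all 19775 genes. Probe sets were tested the same way over 54613. The test was checked on simulated data with independent noise and far fewer changed genes than were called here. That check therefore does not cover the setting of these data. Array intensities with 3 arrays per group limit the precision.

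The members, the lists, the tests and the alternatives were chosen with earlier results of these data known. Each array's level is given for members called with at least a 2-fold change, FGFR1 to FGFR4, FGF2, and members with probe sets called both ways. A few other members are given this way after their values were seen (FGF4, FGF8, FGF12, FGF13, SPRED3, ETV1, DUSP23). Of the other pathway genes the 3 largest changes each way and the 3 brightest not called were named. Plots used matplotlib 3.10.9 and Python 3.11.15.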

Additional observations from a re-analysis of the deposited data

How the results depend on the processing

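Over 19 alternatives (scaling, pseudocount, filter, probe set choice, variance model, replicate block, arrays left out or averaged), 27 of the 41 called members kept their call wherever tested, and 40 kept their direction, FGFR2 being the exception. With scaling on hybridization controls 5 member genes and 13 member probe sets were lower, against 12 and 28 as reported, and 10 members changed sign, of which FGFR2 (0.0905) was called as reported, DUSP12 (0.38) was called under that scaling, and the other 8 were called under neither. SHC1 (0.45) and CBL (0.33) changed sign and were called there, and PLCG1 changed sign uncalled. Centring on gene medians gave 19 lower members and 7 lower pathway genes. Without probe sets whose names end in _x_at or _s_at, 91 of 140 member probe sets remained. Of these 15 (16.5%) were lower, against 20.0% of the 140, and FGFR2 was at 1.05. Array weights gave 7 and the mean of probe sets 6 lower pathway genes, against 3. With 1 array left out, counts were 23 to 29 higher and 11 to 13 lower for member genes, 41 to 48 and 22 to 26 for member probe sets, and 18 to 21 and 3 to 5 for pathway genes. At an adjusted p under 0.01, 23 members were higher and 9 lower. The dimmest 30% and 50% filters left 48 and 34 members.

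Replicate numbers did not pair the arrays, since same-numbered arrays deviated with correlations of -0.02, 0.03 and -0.04. With the replicate block 27 member genes were higher and 13 lower. With progenitor arrays 2 and 3 averaged, 24 were higher and 11 lower.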

Other observations

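Some transcripts named after members but left out by the rule moved against the member, and others did not. SPRY4-IT1, a noncoding RNA named after an intron of SPRY4, fell by 1.82 (SE 0.32) on its brighter probe set and by 0.38 on the other, while SPRY4 rose by 0.88. FGF13-AS1, the antisense RNA of FGF13, fell by 1.25 (SE 0.12), while FGF13 rose by 0.61. FGF14-AS2 rose on both of its probe sets, by 1.27 and 1.21, and FGF14 did not pass at 0.22. The pseudogene DUSP5P1 rose by 0.78 and DUSP5 by 1.96, while FGF10-AS1 (0.12), FGF14-IT1 (0.09) and FGF7P3 (-0.20) did not pass. The adjusted p in limma was 0.00334 and 0.0146 for SPRY4-IT1, 0.000167 for FGF13-AS1, 0.00337 and 0.00155 for FGF14-AS2, and 0.00458 for DUSP5P1. They were chosen after their values were seen, and overlap in the genome between these transcripts and the members was not tested here.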
